A study of Mus musculus with 11 samples.

Results

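Nras, Hras1, Sos1, Braf, Map2k1, Map2k2 and Mapk3 encode core parts of the route from RAS to ERK. They are 7 of the 23284 genes listed in the count tables, were taken by their symbols, and all 7 had enough reads to be tested. The RNA came from 266-6, a mouse line that derives from a pancreatic acinar tumour and keeps features of acinar cells, the cells that make digestive enzymes. Cells had been transfected for 48 h with a non-targeting siRNA or with siRNAs against Arid1a (25 nM), starved of serum overnight, and then kept for 8 h with EGF at 40 ng/ml or with its vehicle, 0.1% BSA. There were 4 groups. Control siRNA was followed by vehicle in 2 libraries and by EGF in 3, and the Arid1a siRNAs by vehicle in 3 and by EGF in 3. All groups share the line, the transfection and the starvation, and the knockdown was transient. The labels do not say whether replicates were grown apart, so each p-value reflects the spread among these samples alone, and that spread may be technical.

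ERK is switched on through a relay at the inner face of the cell membrane. An active EGF receptor recruits SOS1, which loads RAS proteins with GTP, and RAS then activates RAF kinases such as BRAF. RAF phosphorylates the kinases MEK1 and MEK2 (Map2k1 and Map2k2), which phosphorylate ERK1 (Mapk3). Sustained signalling through this route is known to drive acinar cells towards a duct-like state. ARID1A is a DNA-binding subunit of a SWI/SNF chromatin remodelling complex. The relay works through protein activity, which was not measured: every value here is an RNA level.

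Libraries held 10279763 to 19773007 counted reads. Arid1a stood at 291.5 and 399.9 CPM (read counts scaled to a common library size by TMM factors) in the control siRNA libraries without EGF, and 308, 263 and 300.2 CPM in those given EGF. The knockdown libraries had 151, 157 and 127 CPM without EGF and 145, 122 and 152 CPM after it, all below every control library, a change of log2 -1.25 ± 0.13 without EGF (edgeR adjusted p = 2.36e-05) and -1.06 ± 0.12 with it (edgeR adjusted p = 2.85e-05). Of 13 acinar markers, 12 were tested and 1, Amy2a5, was at 0 in all libraries. Their summed level was 14000 to 18300 CPM, most of it from the chymotrypsinogen gene Ctrb1. Among markers of other cell types, Ins1, Ins2, Sst, Lum, Cd3e and Cdh5 were at 0 in all libraries. Others were present: Pdgfrb of the fibroblast and stellate list stood at 269 to 321 CPM and Tek of the endothelial list at 37.0 to 52.3 CPM. The 6 ductal markers, of which none was at 0 throughout, summed to 55.6 to 78.5 CPM with control siRNA, 117 to 129 CPM with control siRNA and EGF, 53.7 to 59.2 CPM with Arid1a siRNAs and 77.9 to 86.0 CPM with both. The 7 islet markers, almost all of it the secretory granule gene Chga, summed to 702 to 752, 1110 to 1160, 626 to 768 and 795 to 840 CPM in the same order. Most of the ductal sum came from Sox9, at 38.6 to 105 CPM over all libraries. Krt19, Krt7 and Cftr of that list reached at most 2.15, 1.08 and 0.507 CPM. The ductal and islet sums were higher with EGF, and their part in the EGF results was not tested.

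Start-site sequence was available for 6 of the 7 genes (RefSeq, GRCm38.p6, from 250 bases before to 50 bases after the start, with Hras1 listed under its current name Hras). Short words bound by common promoter factors were searched on both strands. The GC box (GGGCGG, or CCGCCC on the other strand) was found in 5 of the 6, in Nras, Hras1, Braf, Map2k1 and Map2k2, and in 65.6% of the 9485 promoters of tested genes. The Nras and Hras1 stretches were picked with the different values of these RAS genes below already seen. No link between the word and those values was tested. The 2 stretches are followed by the Braf stretch with the cAMP response element TGACGTCA. That word was found in 1 of the 6 genes and in 3.2% of promoters of tested genes. Capitals mark 1 match in each stretch, and coordinates are on GRCm38.p6. The Nras and Hras1 stretches each hold a further GC box. In Nras it overlaps the marked match by its last capital, and in Hras1 it is separate and left in lower case. Outside the printed stretches, a GC box starts 5 bases before the start in Nras and 127 bases before it in Hras1. Braf has a further cAMP response element starting 81 bases before its start.
Nras, chr3:103058203-103058232, plus strand: ttattgaaatggGGGCGGggcggggctgga
Hras1, chr7:141194005-141194034, minus strand: cggacgggcgtgGGGCGGagcggggcgggg
Braf, chr6:39725544-39725573, minus strand: tgctcctcggaTGACGTCAcgcacccaggt
The CCAAT box (CCAAT or ATTGG) was found in Hras1 and Map2k1 and in 39.3% of promoters of tested genes. The ETS word CCGGAAGT (or ACTTCCGG) and the AP-1 word TGACTCA (or TGAGTCA) were found in 0 of the 6, and in 8.1% and 3.4% of those promoters. A match describes letters and is not a binding site.

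Levels were compared between genes per length, in the FPKM values that the authors deposited, which could be used for 3 of the groups. With control siRNA and EGF the order was Map2k2 (160.6 ± 2.62 FPKM, SD, n = 3), Mapk3 (141 ± 1.48), Hras1 (59.4 ± 1.19), Map2k1 (33.5 ± 1.14), Nras (28.7 ± 0.958), Sos1 (7.18 ± 0.205) and Braf (4.52 ± 0.321), and the ranges of neighbours did not overlap. The exchange factor gene and the RAF gene, which stand upstream, thus had the lowest RNA levels, and a MEK gene and the ERK1 gene the highest. Between the 2 RAS genes, Hras1 was above Nras in each of these groups. With Arid1a siRNAs and no EGF, Map2k2 stayed at the top (175 ± 13.9 FPKM), while Mapk3 (65.8 ± 3.63 FPKM, 62.6 to 69.7) stood just above Hras1 (54.0 ± 5.87 FPKM, 49.0 to 60.5). With Arid1a siRNAs and EGF, which matches the control group in EGF, Map2k2, Mapk3 and Hras1 stood at 182, 70.5 and 59.9 FPKM. Nras stood at 11.6 ± 0.585 FPKM with the siRNAs and 12.7 ± 0.398 FPKM with the siRNAs and EGF, and Sos1 and Braf stayed below it, at 5.63 ± 0.862 and 3.88 ± 0.413 FPKM with the siRNAs.

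**Figure D1:**
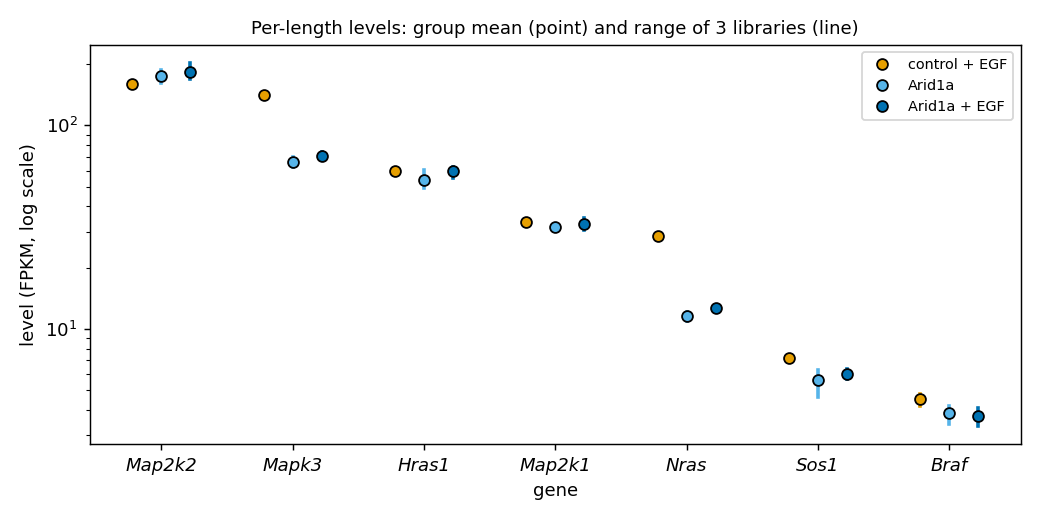
Deposited FPKM of the 7 genes (log axis), with points for group means and lines for the range of 3 libraries, in EGF-treated control cells and in knockdown cells without and after EGF. Mapk3 and Nras are the genes whose points drop most from the EGF-treated control group, from 141 to 70.5 FPKM and from 28.7 to 12.7 FPKM with Arid1a siRNAs and EGF.

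The first pair of comparisons asked what the Arid1a siRNAs changed, without EGF and with it. Nras and Mapk3 fell 1.86- to 2.25-fold in both settings, and the other 5 genes changed by at most 1.22-fold. Without EGF 3 members were lower (Nras, Mapk3 and Sos1), 0 were higher and 4 did not pass the test, where 38.9% of all 13343 genes tested were called. With EGF 4 were lower (Nras, Mapk3, Sos1 and Braf), 1 was higher (Map2k2) and 2 did not pass, where 46.9% of all genes were called. The median log2 change of the 7 was -0.17 without EGF and -0.25 with it, against -0.01 and 0 over all genes. In a bulk culture, fewer cells with a transcript and less of it per cell cannot be told apart.

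Nras encodes a RAS GTPase, the switch that passes the signal to RAF. It stood at 113 and 118.5 CPM with control siRNA and at 57.4, 55.8 and 51.4 CPM with Arid1a siRNAs. With EGF it stood at 131, 136 and 141 CPM with control siRNA and at 59.2, 59.96 and 62.6 CPM with Arid1a siRNAs. Every knockdown library lay below every control library, with a wide gap. Groups that did not overlap were seen for 54.7% of all genes without EGF and 57.6% with EGF. Nras was 2.11-fold lower without EGF (log2 -1.08 ± 0.06, SE, edgeR adjusted p = 3.58e-08). In EGF-treated cells it was 2.25-fold lower (log2 -1.17 ± 0.06, edgeR adjusted p = 4.33e-09). Of all genes tested, 220 (1.65%) without EGF and 169 (1.27%) with EGF fell at least as far.

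Mapk3 encodes ERK1, the last kinase of the relay. Its levels were 218 and 207 CPM with control siRNA and 113, 109.7 and 121 CPM with Arid1a siRNAs. With EGF they were 247, 244 and 246 CPM with control siRNA and 122, 129.7 and 120.0 CPM with Arid1a siRNAs. The groups were again far apart, and the 3 control libraries with EGF were nearly equal. Mapk3 was 1.86-fold lower without EGF (log2 -0.89 ± 0.06, edgeR adjusted p = 8.89e-08). In EGF-treated cells it was 1.98-fold lower (log2 -0.99 ± 0.05, edgeR adjusted p = 8.81e-09). At least as large a fall was seen in 387 genes (2.9%) without EGF and 277 genes (2.08%) with it. Both Nras and Mapk3 passed the test in all 20 alternatives run without EGF and in all 24 run with EGF.

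**Figure D2:**
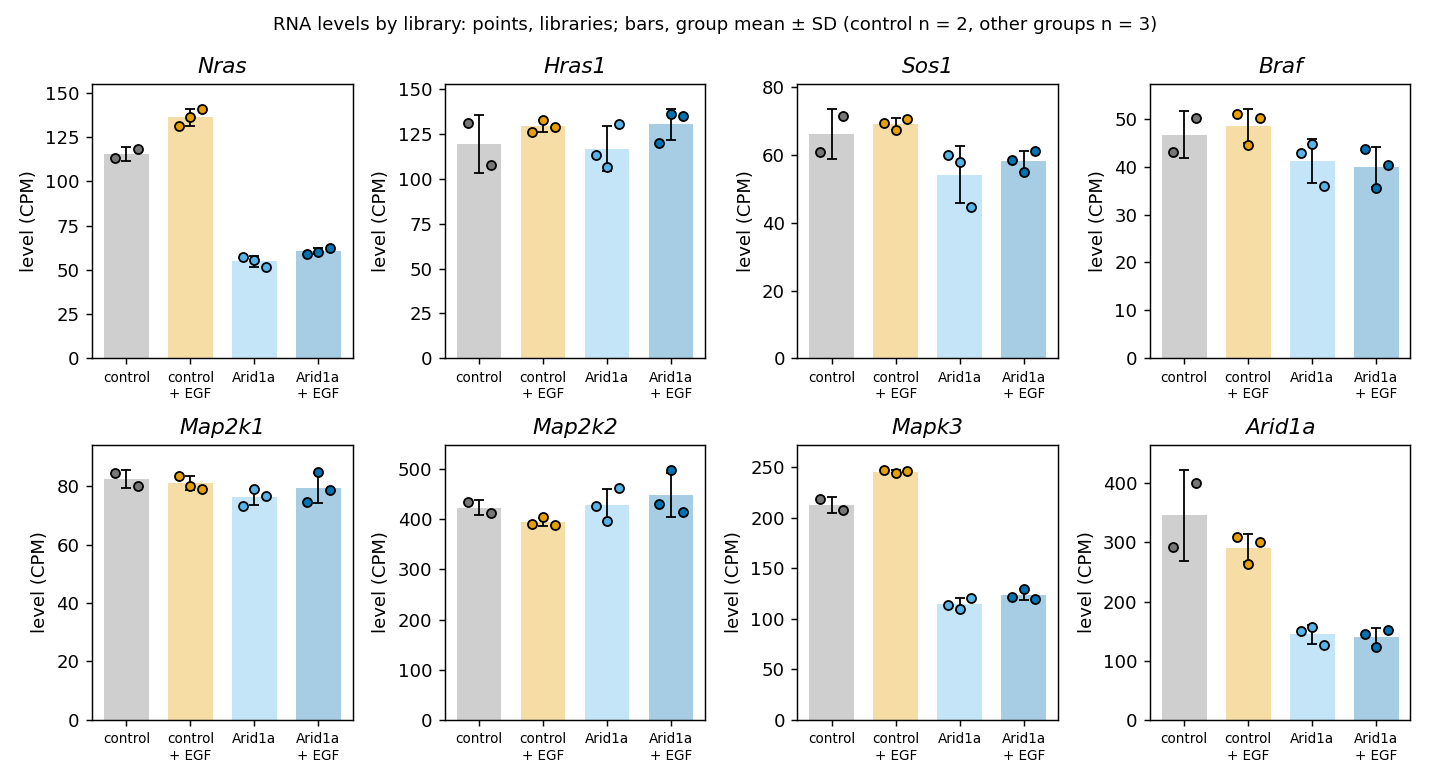
Level (CPM) of the 7 genes and Arid1a in each library, with points for libraries and bars for group means ± SD (control siRNA n = 2, other groups n = 3). For Nras, Mapk3 and Arid1a the 6 libraries with Arid1a siRNAs all lie below the 5 with control siRNA, while for Hras1 the groups overlap.

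Hras1 encodes another RAS GTPase and had no called change. Control siRNA libraries held 130.8 and 108 CPM without EGF and 126, 133 and 129 CPM after it. Arid1a siRNA libraries held 113, 106 and 130.5 CPM without EGF and 120.0, 136 and 135 CPM after it. These groups overlapped. Its log2 change was -0.04 ± 0.09 (95% interval -0.24 to 0.16) without EGF and 0.01 ± 0.08 (-0.17 to 0.19) with EGF, so changes of the size seen for Nras lay outside both intervals. Reads of Nras for each read of Hras1 were 0.864 and 1.1 with control siRNA, 1.04, 1.03 and 1.09 with control siRNA and EGF, 0.506, 0.524 and 0.394 with Arid1a siRNAs, and 0.493, 0.441 and 0.465 with both. Within each library, then, the balance of these 2 transcripts shifted towards Hras1 with the knockdown. The ratio is not corrected for length.

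Sos1 encodes the exchange factor that loads RAS with GTP. It stood at 60.9 and 71.5 CPM with control siRNA and at 60.1, 57.99 and 44.5 CPM with Arid1a siRNAs. With EGF it stood at 69.5, 67.4 and 70.7 CPM with control siRNA and at 58.5, 54.8 and 61.1 CPM with Arid1a siRNAs. The groups did not overlap, by a margin of less than 1 CPM without EGF. The fall was 1.22-fold without EGF (log2 -0.28 ± 0.11, edgeR adjusted p = 0.0479). In EGF-treated cells it was 1.19-fold (log2 -0.25 ± 0.10, edgeR adjusted p = 0.0433). Neither call held throughout. Without EGF it was lost in 15 of 20 alternatives, among them leaving out control siRNA replicate 2 (log2 -0.17, edgeR adjusted p = 0.32) or Arid1a siRNA replicate 3 (log2 -0.16, edgeR adjusted p = 0.145). With EGF it was lost in 13 of 24 alternatives. With the replicate number as a block the adjusted p-value with EGF was 0.0754.

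Braf encodes the RAF kinase that RAS-GTP activates. Its levels were 43.1 and 50.1 CPM with control siRNA and 42.8, 44.7 and 35.9 CPM with Arid1a siRNAs, which overlapped (log2 -0.17 ± 0.11, edgeR adjusted p = 0.24). With EGF they were 50.99, 44.4 and 50.1 CPM with control siRNA and 43.7, 35.6 and 40.4 CPM with Arid1a siRNAs, apart by under 1 CPM. Braf was 1.21-fold lower there (log2 -0.28 ± 0.10, edgeR adjusted p = 0.0321). That call was lost in 11 of 24 alternatives, among them the replicate block (adjusted p = 0.0571) and leaving out replicate 2 of Arid1a siRNAs with EGF (log2 -0.20, edgeR adjusted p = 0.133).

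The MEK genes did not follow Nras and Mapk3. Map2k1 stood at 84.7 and 80.3 CPM with control siRNA and at 73.3, 78.9 and 76.7 CPM with Arid1a siRNAs. These libraries did not overlap, but the change did not pass the test (log2 -0.11 ± 0.07, edgeR adjusted p = 0.216). With EGF its levels were 83.7, 80.3 and 79.2 CPM with control siRNA and 74.5, 84.9 and 78.7 CPM with Arid1a siRNAs (log2 -0.03 ± 0.06, edgeR adjusted p = 0.709). Map2k1 thus had no called change in either setting.

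Map2k2 had 434 and 412 CPM with control siRNA and 426.5, 396 and 462 CPM with Arid1a siRNAs (log2 0.02 ± 0.08, edgeR adjusted p = 0.899). With EGF it had 391, 404 and 388 CPM with control siRNA and 431, 498 and 415 CPM with Arid1a siRNAs. The groups with EGF were apart, as for 57.6% of all genes, and Map2k2 was 1.14-fold higher with the siRNAs (log2 0.19 ± 0.07, edgeR adjusted p = 0.0414), the single rise among the 7 genes. The call was lost in 12 of 24 alternatives, among them the replicate block (adjusted p = 0.0775) and leaving out replicate 2 of Arid1a siRNAs with EGF, without which the value was log2 0.10 (edgeR adjusted p = 0.221). Reads of Mapk3 for each read of Map2k2 were 0.502 and 0.503 with control siRNA, 0.632, 0.604 and 0.633 with control siRNA and EGF, 0.265, 0.277 and 0.262 with Arid1a siRNAs, and 0.283, 0.26 and 0.289 with both. The ERK1 transcript was therefore low against the MEK2 transcript in every knockdown library.

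**Figure D3:**
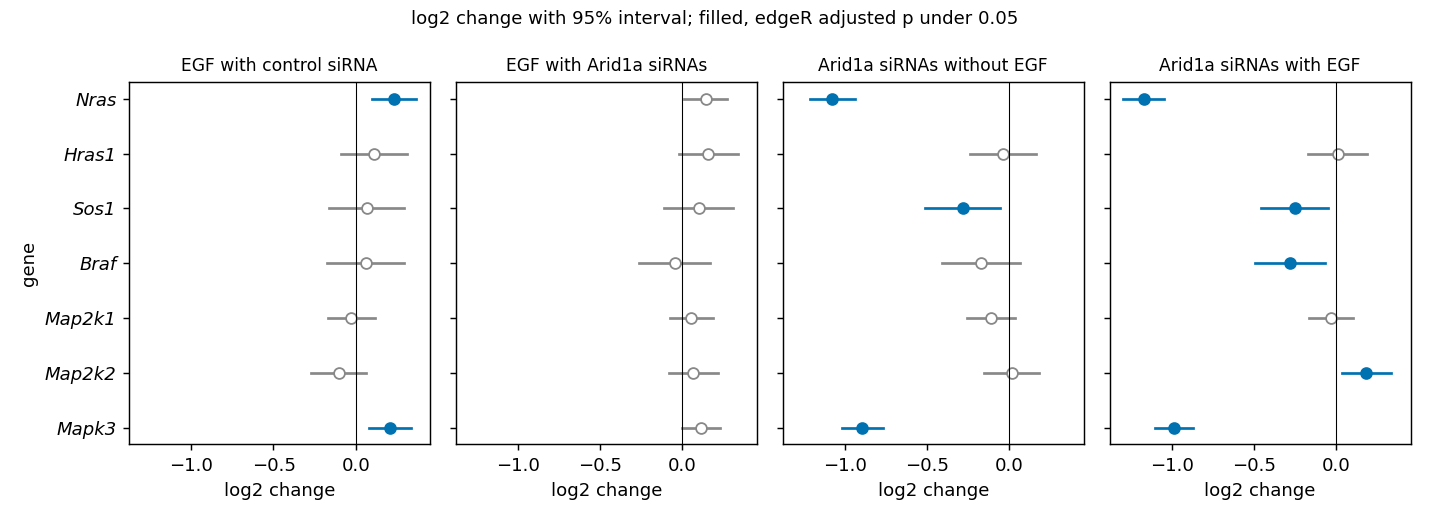
Log2 change of each gene with its 95% interval in 4 comparisons, filled where the edgeR adjusted p was under 0.05. Nras and Mapk3 lie near -1 in both comparisons of Arid1a siRNAs and slightly above 0 with EGF and control siRNA, and none of the 7 is filled for EGF with Arid1a siRNAs.

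The next comparisons asked what 8 h of EGF changed. With control siRNA, Nras and Mapk3 rose slightly and the other 5 did not pass, where 35.6% of all genes were called. This comparison uses the same control siRNA libraries as the one of Arid1a siRNAs without EGF, so a high or low value in them moves both. Nras rose 1.18-fold, from 116 ± 3.89 to 136 ± 4.97 CPM (log2 0.24 ± 0.06, edgeR adjusted p = 0.00944). Mapk3 rose 1.15-fold, from 213 ± 7.64 to 246 ± 1.59 CPM (log2 0.21 ± 0.06, edgeR adjusted p = 0.0138). In both genes each EGF library lay above each control library, and groups did not overlap for 55.5% of all genes. The Nras call was lost without control siRNA replicate 1 (log2 0.20, edgeR adjusted p = 0.0903), and the Mapk3 call without control siRNA replicate 2 (log2 0.17, edgeR adjusted p = 0.099).

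Hras1, Sos1 and Braf had log2 changes of 0.11 ± 0.09, 0.07 ± 0.11 and 0.06 ± 0.11 with EGF and control siRNA, and Map2k1 and Map2k2 of -0.03 ± 0.07 and -0.10 ± 0.08 (edgeR adjusted p from 0.332 to 0.801). Libraries overlapped for these genes except Map2k2, where each EGF library lay below each control library (55.5% of all genes were apart in 1 direction or the other). The median of the 7 was 0.07, against -0.03 over all genes.

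With Arid1a siRNAs, EGF gave 0 called members of 7, where 23.4% of all genes were called, and at an unadjusted p under 0.05 edgeR gave 1, Nras. Nras stood higher in each EGF library, where groups did not overlap for 38.7% of all genes (log2 0.14 ± 0.06, edgeR adjusted p = 0.11), and the log2 changes of Mapk3 and Hras1 were 0.11 ± 0.06 and 0.16 ± 0.08 (edgeR adjusted p = 0.159 and 0.199). Hras1 was called without Arid1a siRNA replicate 3 (log2 0.25, edgeR adjusted p = 0.0461). The other 4 members had log2 changes from -0.05 (Braf) to 0.10 (Sos1).

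The difference between the EGF responses was itself tested as an interaction. It was called for 0 of the 7 members, also at an unadjusted p under 0.05, where 0.944% of all genes were called. The difference was -0.09 ± 0.09 for Nras (95% interval -0.28 to 0.09, edgeR adjusted p = 0.844) and -0.09 ± 0.08 for Mapk3 (-0.27 to 0.08, edgeR adjusted p = 0.812). The values of the 7 ran from -0.11 (Braf) to 0.17 (Map2k2). That Nras and Mapk3 passed the EGF test with control siRNA and not with Arid1a siRNAs is thus no measured difference between the 2 responses.

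Within groups, several members deviated in opposite directions in the same libraries. Hras1 and Map2k2 were high and Sos1 and Braf low in replicate 3 of Arid1a siRNAs, where their log2 deviations from the group mean were 0.17, 0.11, -0.27 and -0.19. In replicate 2 of Arid1a siRNAs with EGF the deviations were 0.06, 0.16, -0.08 and -0.16. Over the 11 libraries the deviations of Braf correlated at 0.82 with those of Sos1 and at -0.90 with those of Hras1, and those of Mapk3 at 0.93 with Map2k2, as a description of libraries whose deviations are tied within each group. With both of these libraries left out together, a choice made after seeing the data, 2 members were called without EGF (Nras and Mapk3). With EGF 3 were called (Nras, Mapk3 and Sos1), while Braf (log2 -0.20, edgeR adjusted p = 0.0793) and Map2k2 (log2 0.10, edgeR adjusted p = 0.0993) were not. Hras1, Map2k2, Sos1 and Braf also deviated with these signs in replicate 1 of control siRNA, by 0.139, 0.038, -0.115 and -0.107. In replicate 2 of control siRNA with EGF their deviations were 0.039, 0.034, -0.038 and -0.124. These control libraries were kept in that fit. What sets such libraries apart was not tested.

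Some genes next to the members were read from GENCODE vM21 for order and distance. Gdpd3, 515 bases after Mapk3, had log2 changes with the Arid1a siRNAs of 0.42 without EGF (edgeR adjusted p = 0.164) and 0.12 with EGF (edgeR adjusted p = 0.66). Lrrc56, 152 bases from Hras1 on the other strand, rose with the Arid1a siRNAs by log2 0.999 without EGF (edgeR adjusted p = 0.000772) and 1.47 with EGF (edgeR adjusted p = 2.01e-05), where Hras1 had no called change. Creb3l3, a transcription factor gene 7041 bases from Map2k2 on the other strand, rose by log2 1.97 and 1.94 (edgeR adjusted p = 8.48e-07 and 1.95e-07). The library kit does not mark the strand, and of the members Braf alone shares exon bases with another gene (Ndufb2, 1.1% of its exon bases).

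The genes whose levels over the 11 libraries were most like that of Nras were Atxn7l3b (Pearson r = 0.998), Txlna (0.997) and Actr2 (0.996), of 9461 candidates. Those most like Mapk3 were Txn2 (0.997), Cstf3 (0.995) and Cldn11 (0.995). Atxn7l3b had log2 changes of -1.06 without EGF (edgeR adjusted p = 2.78e-08) and -1.22 with EGF (edgeR adjusted p = 2.57e-09), and Txn2, a mitochondrial thioredoxin gene, of -1.18 (edgeR adjusted p = 6.81e-08) and -1.23 (edgeR adjusted p = 9.45e-09). The points share the group means, so such values mostly repeat the gap between groups. Sos1 was most like Pkn2 (0.984), Braf most like Pcm1 (0.976) and Map2k2 most like Ssna1 (0.949).

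The wider pathway was read from 9 lists with 111 genes, of which 103 were tested. With Arid1a siRNAs 17 were higher, 32 lower and 54 not called without EGF, and 15 were higher, 40 lower and 48 not called with EGF. Of all genes tested, 18.8% were higher and 20.1% lower without EGF, and 23.7% were higher and 23.2% lower with EGF. Among 10 other RAS family GTPases 6 fell and 0 rose without EGF (median log2 -0.32), and 6 fell and 2 rose with EGF (median -0.24). Rras2 fell by log2 0.84 without EGF (SE 0.10, edgeR adjusted p = 1.8e-05), and Ralb, a RAL GTPase downstream of RAS, by 0.43 with EGF (SE 0.06, edgeR adjusted p = 2.72e-05). All 3 other RAF and ERK kinases were lower without EGF and 2 with EGF (medians -0.28 and -0.28).

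Adaptors, exchange factors and GTPase-activating proteins set how much RAS is active. Of 16 adaptors and exchange factors 5 fell and 1 rose without EGF (median log2 -0.10), and 6 fell and 2 rose with EGF (median -0.11). Cblb, a ubiquitin ligase that restrains receptor signalling, fell by log2 0.69 without EGF (SE 0.11, edgeR adjusted p = 0.000203) and 0.56 with EGF (SE 0.10, edgeR adjusted p = 0.000299). Of 7 GTPase-activating proteins, which switch RAS off, 3 rose and 0 fell in each setting (medians -0.07 without EGF and 0.10 with EGF). Rasal1 rose by log2 1.32 without EGF (SE 0.17, edgeR adjusted p = 3.61e-05) and 0.56 with EGF (SE 0.14, edgeR adjusted p = 0.0035). Without control siRNA replicate 1 the 3 that rose without EGF became 1.

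Of 15 scaffolds and regulators of RAF, MEK and ERK, 4 rose and 3 fell without EGF, and 5 rose and 3 fell with EGF; without control siRNA replicate 2, the 3 that fell without EGF became 1. Pea15a, which holds ERK in the cytoplasm, rose by log2 0.50 without EGF (SE 0.06, edgeR adjusted p = 1.4e-05) and 0.59 with EGF (SE 0.05, edgeR adjusted p = 5.92e-07). Among 10 kinases and factors that ERK phosphorylates, 2 rose and 2 fell without EGF, and 1 rose and 3 fell with EGF. The rises did not hold: without control siRNA replicate 1, or without Arid1a siRNA replicate 2, the 2 became 0. Rps6ka2, an RSK kinase, fell by log2 0.77 without EGF (SE 0.12, edgeR adjusted p = 0.00014) and 1.03 with EGF (SE 0.10, edgeR adjusted p = 1.23e-06). In the JNK, p38 and ERK5 cascades 8 of 19 fell without EGF and 6 with EGF, with 1 rise in each. Over the alternatives the single rises without EGF in this list and among the adaptors ran from 0 to 2. Map2k3, a p38 activator, fell by log2 0.65 and 0.68 (edgeR adjusted p = 1.4e-05 and 2.04e-06).

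**Figure D4:**
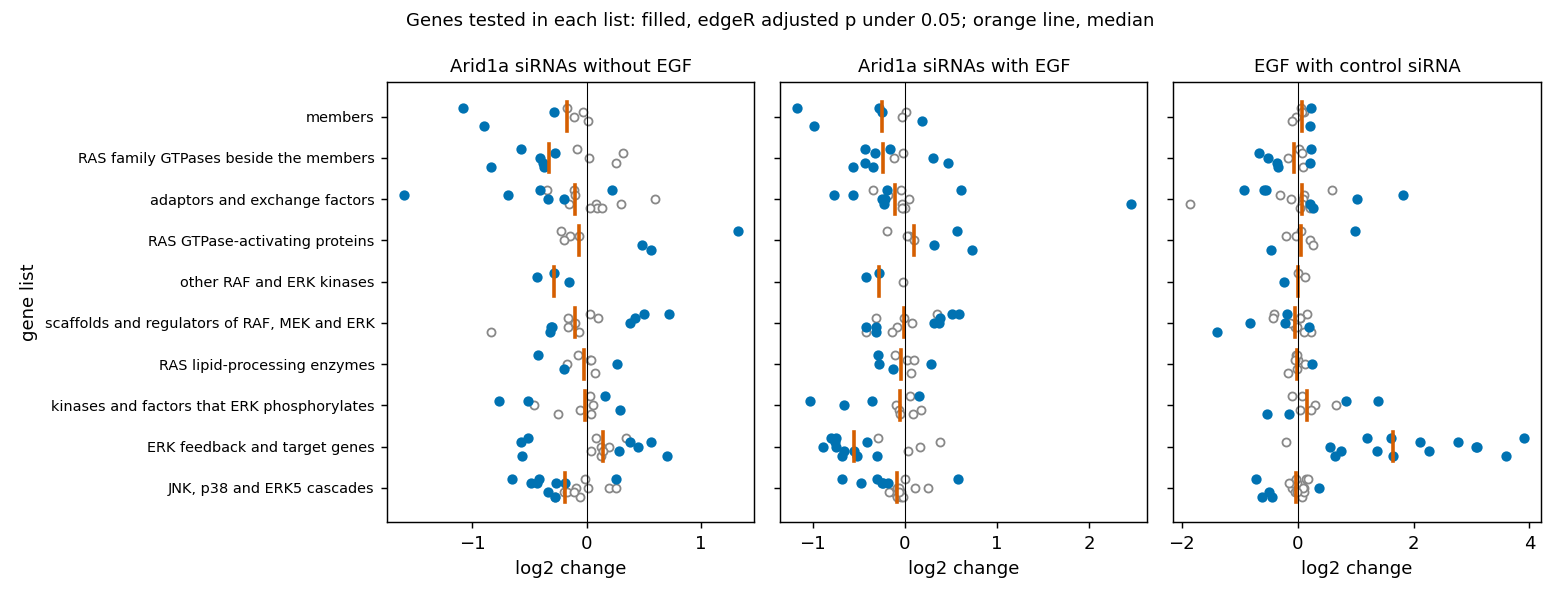
Log2 change of each tested gene by list in 3 comparisons, filled where the edgeR adjusted p was under 0.05, with an orange line at the list's median. The 7 members have 2 genes near -1 and the rest near 0 with Arid1a siRNAs, and the ERK feedback and target genes have a median of 1.64 with EGF and control siRNA.

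By list median, EGF moved the ERK feedback and target genes more than the members or any other list. Those genes were listed as ERK targets, so their rise is no independent result, and ERK activity was not measured. Single parts of the route also moved. Rasgrf2, an exchange factor gene, rose by log2 1.82 (1.02 to 3.68 CPM) and Gab1, an adaptor gene, fell by 0.92, both with control siRNA. Of 16 adaptors and exchange factors 4 rose and 3 fell there. Of 15 ERK feedback and target genes 14 rose with control siRNA (median log2 1.64) and 14 with Arid1a siRNAs (median 1.32), and 7 had a smaller response with the siRNAs by the interaction test. Of all genes tested, 0.382% had a negative difference called in the interaction, and EGF raised 16.8% with control siRNA and 13% with Arid1a siRNAs. Dusp6, which encodes an ERK phosphatase, rose by log2 3.08 ± 0.09 and 2.15 ± 0.08. Over the alternatives the 7 calls ran from 5 to 7. Etv5 was lost with the replicate block (edgeR adjusted p = 0.0974) and when any 1 of several libraries was left out. Without control siRNA replicate 1, both Etv5 (edgeR adjusted p = 0.127) and Etv4 (edgeR adjusted p = 0.0717) were lost. With Arid1a siRNAs 5 of the 15 were higher and 3 lower without EGF, where the 5 ran from 2 to 8 over the alternatives. With EGF 0 were higher and 11 lower. The other 8 lists had 0 genes called in the interaction. Among exchange factors, Sos2, the relative of Sos1, fell by log2 0.58 with EGF and control siRNA (SE 0.07, edgeR adjusted p = 1.98e-05) and 0.36 with EGF and Arid1a siRNAs (SE 0.07, edgeR adjusted p = 0.00135), where Sos1 had no called change.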

How the data were processed

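The 11 libraries were made from poly(A) RNA with a kit that does not mark strand, per the labels' protocols. Per the submitters' processing notes, the authors used TopHat2 2.1.1, build mm9, HTSeq 0.9.1, Cuffnorm 2.2.1.2 and Cuffdiff 2.2.1.5. Annotation and counting settings are not given in the sources used here. The deposited count tables hold raw read counts per gene symbol. The authors' deposited FPKM table is normalised in a way not stated. Its 3 control columns, which outnumber the 2 control libraries, were not used.

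The counts went through edgeR 4.0.16 (R 4.3.3): filterByExpr (minimum count 10, minimum total 15; 13343 genes, 57.3% of those listed, with 99.96% of reads), TMM factors, and a robust quasi-likelihood fit of 4 group means over 11 libraries (7 residual and 7.45 prior degrees of freedom, biological coefficient of variation 7.00%). A call needed an adjusted p (Benjamini-Hochberg, over all genes tested) under 0.05, two-sided, with no minimum fold. Alternatives used other scaling, no filter, DESeq2 1.42.0, limma 3.58.1 (voom, and log2 FPKM with a pseudocount of 1 or 0.1), fewer libraries and a replicate block. No 2 libraries of a group were copies (chi-square per degree of freedom 1.57 to 10.9). Replicate numbers come from the labels, which do not say what a number shares. Deviations of same-numbered libraries correlated at 0.14, 0.303 and 0.129 between the groups with EGF, and over all 15 same-number pairs at -0.381 to 0.316, with 4 over 0.1. The calls come from the fit without a block. For Arid1a siRNAs with EGF, the values from the block over all libraries are printed where they change a call.

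Members and lists were chosen with earlier results of these data known. Listed genes are named by the smallest p among those called, 2 per list and comparison, of which some are shown. Most-like genes have a mean log2 CPM of at least 3. Some genes that the rule selects are not reported here. Positions are from GENCODE vM21, a later build than that of the counts, and serve for order and distance only.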

Additional observations from a re-analysis of the deposited data

How the results depend on the processing

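Of 742 member values under alternatives, 688 kept their side of the threshold, 53 lost the call and 1 gained it. Of the 688, 659 kept their sign, and 29, none of them called, changed sign or rounded to 0. Nras and Mapk3 with Arid1a siRNAs never lost the call, with adjusted p-values of at most 2.2e-05 and 4.74e-05 without EGF and 0.000196 and 0.000219 with EGF. The 5 members called for Arid1a siRNAs with EGF became 3 under upper-quartile factors, 2 with deposited FPKM under each pseudocount and filter (2, 2 and 2), 3 with 2 libraries left out together, and 2 to 5 with each library left out in turn. Leaving out libraries in turn gave 1 to 2 members for EGF with control siRNA, 0 to 1 for EGF with Arid1a siRNAs, and 55 to 153 genes for the difference between the EGF responses (126 in the full fit).

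The replicate block over all libraries called 2 members for Arid1a siRNAs with EGF, 2 without EGF, where Sos1 had an adjusted p of 0.115, and 56 genes for the difference. The 2 that it kept with EGF are Nras and Mapk3. A block fitted to the 2 groups with EGF alone was added after that result was seen, and called 5 members. It has 2 residual degrees of freedom, with 251 prior degrees of freedom and a biological coefficient of variation of 2.66%, against 5.93 and 7.73% for the block over all libraries. Its p-values therefore rest almost wholly on spread borrowed across genes, and it is not used as support for Sos1, Braf or Map2k2.

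Among called genes, the share higher with Arid1a siRNAs without EGF was 48.3%, and 60.7% under upper-quartile factors, which moved the median of all genes from -0.01 to 0.05. FPKM gave values for 2 comparisons, and a fit of only the groups compared cannot give the difference. With 2 or 3 libraries a group, 95% intervals of the members without a call include changes in either direction, except that of Nras for EGF with Arid1a siRNAs (0.01 to 0.27).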
